A study of Homo sapiens with 2 samples.

Results

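The mitochondrial ribosomal protein genes are the nuclear genes for the protein part of the ribosome that works inside mitochondria. They were taken as all protein-coding genes whose symbol starts with MRPL or MRPS and a number, which gave 78 of the 19951 protein-coding genes and 58735 genes in the deposited table. By symbol, 49 belong to the large subunit (MRPL) and 29 to the small subunit (MRPS). RNA was sequenced from 1 control library of cells labelled SH-SY5Y, a human neuroblastoma line used as a neuron-like model, and from 1 library of the same line exposed for 24 h to TDCPP, an organophosphate flame retardant, mixed with TiO2 NPs (nanoparticles of titanium dioxide). The labels give no dose, no library of either agent alone and no replicate, and 1 growth protocol, with serum-containing medium, is given for both. With 1 library per group no difference has a replicate check and no test was run. Intervals printed with ratios are exact 95% counting intervals of the read ratio and compare these 2 libraries, not the conditions.

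The libraries held 16471438 (control) and 15315572 (exposed) reads on annotated genes. The identity named in the labels was checked against 12 genes that mark noradrenergic neuroblastoma cells, of which 4 reached a mean of 1 FPKM (a level per unit of gene length and library depth). PHOX2A, TH, STMN2 and ELAVL4 had 0 reads in both libraries, and the list summed to 21.1 FPKM in control cells and 14.0 FPKM in exposed cells. Of 10 glial and mesenchymal markers 5 reached a mean of 1 FPKM, with summed levels of 71.2 and 58.7 FPKM, and of 8 endothelial and blood markers none did, with 0.535 and 0.626 FPKM. The part of these differences in the values below was not tested. In bulk RNA, fewer cells of a type and less RNA per cell cannot be told apart.

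Mitochondrial ribosomes translate the few messenger RNAs of the mitochondrial genome, all of which encode subunits of the respiratory chain and ATP synthase. Their ribosomal RNAs come from mitochondrial DNA, while every protein subunit is encoded in the nucleus, made in the cytosol and imported. Many subunits descend from the proteins of the bacterial ribosome, and others were added in the course of mitochondrial evolution and have no bacterial counterpart. The small subunit reads the messenger RNA, and the large subunit joins amino acids and releases the chain through a tunnel whose exit lies against the inner membrane. Inherited mutations in several of these genes cause combined deficiencies of the respiratory chain.

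The levels of the 78 genes ranged widely around a middle near 17 FPKM. Of the 78, 77 reached a mean of 1 FPKM and are called measured here. In the control library the measured members had a median of 17.3 FPKM with quartiles of 11.4 and 30.3 FPKM, against a median of 7.85 FPKM over all 11409 measured protein-coding genes. Medians were 18.3 FPKM for the large and 17.1 FPKM for the small subunit in the control, and 16.7 and 17.9 FPKM in the exposed library. By mean level 8 members lay under 5 FPKM, 37 between 5 and 20, 27 between 20 and 50, and 6 at or above 50 FPKM.

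The most abundant member was MRPS34, a small-subunit protein without a bacterial counterpart, at 154 FPKM (control) and 124 FPKM (exposed). MRPL37 followed at 78.6 and 84.5 FPKM, then MRPS2 at 77.8 and 62.4 FPKM and MRPL3 at 76.2 and 61.1 FPKM. MRPL37 is a large-subunit protein found only in mitochondria, and MRPS2 and MRPL3 are homologs of bacterial ribosomal proteins of the same number. Of these 4, MRPL37 alone was higher in the exposed library.

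At the other end, MRPS24, the mitochondrial form of the bacterial S3 protein, had 9 and 13 reads (0.215 and 0.315 FPKM) and was the 1 member below the filter. Its annotated exons share 23.2% of their bases with a read-through gene, URGCP-MRPS24, that was listed with 0 reads in both libraries. MRPL46 stood at 1.19 and 1.44 FPKM, MRPL38 at 1.79 and 1.54 FPKM and MRPS28 at 2.06 and 2.41 FPKM. MRPL38 shares 41.1% and MRPS28 35.8% of exon bases with other genes, and MRPL46 11.3%. The labels state no strand and no rule for reads in shared exons, so these low levels are uncertain.

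**Figure D1:**
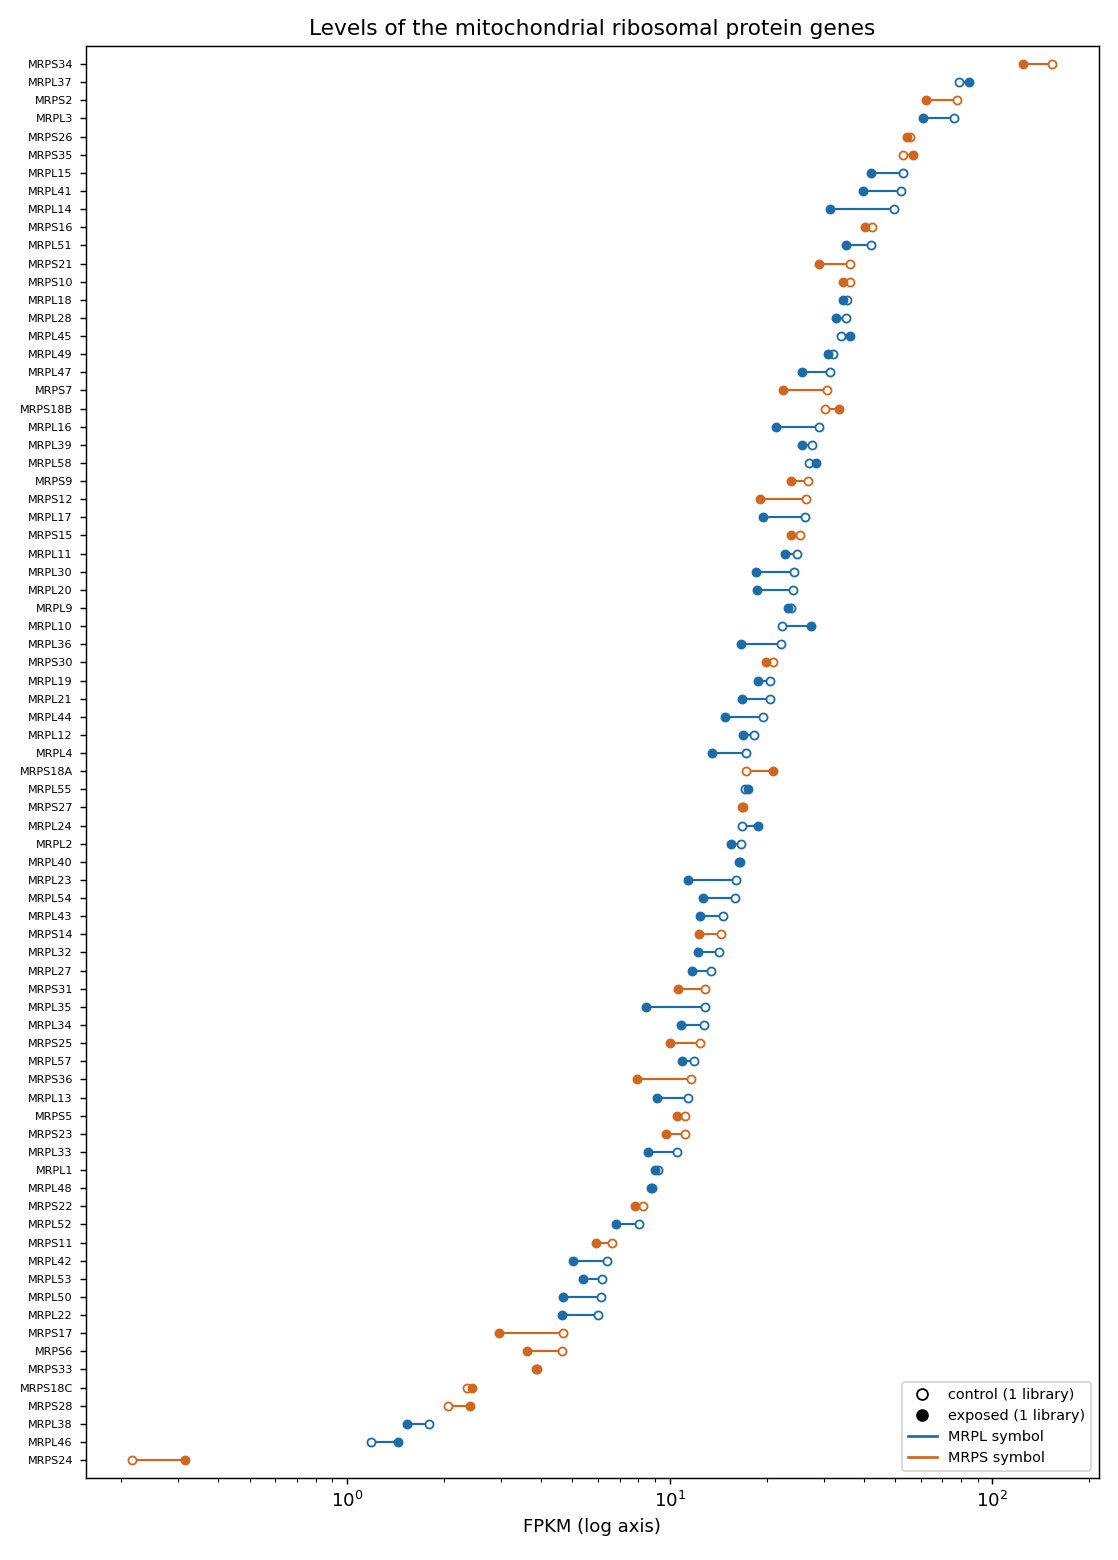
FPKM of each of the 78 genes in the control library (open circles) and the exposed library (filled circles), sorted by the control level on a log axis and coloured by the symbol's subunit. Levels run from 0.215 FPKM for MRPS24 to 154 FPKM for MRPS34 in the control, and for most genes the filled circle lies to the left of the open one.

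Promoter sequence is shown for members described here that hold a factor's motif just before the start, because many genes for mitochondrial proteins are known to be bound by NRF1, by ETS-family factors such as GABP, and by YY1. RefSeq promoters (build GRCh38.p14, 250 bases before to 50 after a start) were found for 69 of the 78 genes. The ETS letters CCGGAAG, on either strand, were present in 30 of 69 genes (43.5%). This compares with 23.4% of 9159 measured protein-coding genes and 10.3% of all 35116 promoters. A gene counted if any of its promoters matched, whereas the 35116 promoters, not limited to measured genes, were counted singly. The last share is therefore not of the same unit. The YY1 letters AAGATGGCG, on either strand, were present in 13 (18.8%), against 5.04% and 1.75%. In 10 of the 13 a match, on either strand, began at or after the start. The NRF1 letters, GCGC followed by any base and TGCGC, on either strand, were present in 9 (13.0%), against 14.0% and 5.78%. At least 1 of the 3 motifs, which do not contain one another, was present in 45 of the 69. Shares were close between the subunits for ETS (42.9% of large, 44.4% of small) and YY1 (19.0% and 18.5%), and were 16.7% and 7.41% for NRF1. Measured members with the ETS letters had a median log2 ratio of -0.18 (n = 30) and those without -0.13 (n = 38). The medians were -0.22 with (n = 9) and -0.14 without (n = 59) the NRF1 letters, and -0.17 both with (n = 12) and without (n = 56) the YY1 letters. A match is a description of letters and not a site of binding.

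The stretches below lie before both the RefSeq start and the annotated gene, are written 5′ to 3′ on the gene's strand, and carry the matched motif in capitals. They belong to 2 abundant genes that were lower in the exposed library, MRPS34 and MRPL3, to MRPS18A, which was higher, and to MRPL45, whose counting interval held 1. The MRPS34 stretch is chr16:1773156-1773206 (minus strand) and is short because the neighbouring gene begins there. The others are chr3:131502984-131503133 (MRPL3, minus), chr6:43687792-43687941 (MRPS18A, minus) and chr17:38296918-38297022 (MRPL45, plus). The first 3 carry the ETS letters, MRPS34 with 2 matches, and MRPL45 carries the NRF1 letters as their reverse complement.
MRPS34: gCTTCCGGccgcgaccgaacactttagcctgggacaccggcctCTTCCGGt
MRPL3: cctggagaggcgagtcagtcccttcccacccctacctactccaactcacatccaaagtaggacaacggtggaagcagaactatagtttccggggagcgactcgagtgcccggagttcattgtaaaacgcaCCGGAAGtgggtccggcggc
MRPS18A: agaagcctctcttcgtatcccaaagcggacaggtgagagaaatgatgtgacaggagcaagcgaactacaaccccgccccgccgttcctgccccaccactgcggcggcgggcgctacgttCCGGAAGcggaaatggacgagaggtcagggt
MRPL45: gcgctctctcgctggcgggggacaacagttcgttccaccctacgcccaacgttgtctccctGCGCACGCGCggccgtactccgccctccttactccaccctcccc

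Most mitoribosomal protein genes were slightly lower in the exposed library, and almost none differed much. The difference was taken as the log2 ratio of (FPKM + 1), exposed over control, where the added 1 understates the difference of low genes. Of 77 measured members 65 lay below 0 and 12 above 0, against 58.1% of all measured genes below 0. The members' median was -0.18 with quartiles of -0.31 and -0.05, while that of all 11409 measured genes was -0.05 with quartiles of -0.22 and 0.12. Below the median of all genes lay 57 members, where 50% of all genes do by definition. With FPKM sums made equal between libraries, which moved the median of all genes by 0.11, 46 of 77 lay below 0. Below the shifted median lay 55, a count that could change little, since this scaling moves members and median nearly alike.

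Folds were called on FPKM + 1, whereas the ratios printed for single genes are of plain FPKM and lie farther from 1 for low genes. Only MRPL14 passed 1.5-fold, as lower, and no member was 1.5-fold higher, against backgrounds of 2.16% lower and 2.53% higher. MRPL14 did not reach 1.5-fold with FPKM sums made equal, or with scaling that left out mitochondrially encoded genes and the 100 most abundant, and with a pseudocount of 0.1 there were 3 such members. The plain FPKM ratios of MRPS17 and MRPL35 lay past 1.5-fold too. At 1.2-fold, 31 members were lower and 1 was higher (MRPL10), against 19.3% and 12% of all measured genes. The plain FPKM ratios of MRPS18A and MRPL46 were just above 1.2. The counting interval of the read ratio lay wholly below 1 for 42 members and wholly above 1 for 4, against 36% and 21.5% of all measured genes. For the remaining 31 the interval held 1, so no difference was detectable at this depth. Summed over all 78 genes, the members took 0.427% of control reads (Wilson 95% interval 0.424% to 0.430%) and 0.401% of exposed reads (0.398% to 0.404%). These shares are of reads on annotated genes, whereas the ratios and their intervals use the deposited FPKM scale. On that scale the summed reads of the measured members had a ratio of 0.884 (0.875 to 0.894), lower than the shares give. Scaling by reads on genes was not run, so the interval counts hold for the FPKM scale only.

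Large and small subunit genes differed little from each other. The median log2 ratio was -0.21 for 49 large-subunit genes and -0.11 for 28 small-subunit genes, a gap of -0.09, while the genes within each group had an SD of 0.19 and 0.20. The reads summed over large-subunit genes went from 41128 to 35545, a ratio of 0.877 (0.864 to 0.889) on the FPKM scale, and those over measured small-subunit genes from 29245 to 25811, a ratio of 0.895 (0.880 to 0.910). These intervals overlap. With FPKM sums made equal the medians were -0.10 and 7.8e-05, so the small-subunit median was no longer below 0, while that of all genes was 0.06. At 1.2-fold, 21 of 49 large and 10 of 28 small-subunit genes were lower, against 19.3% of all measured genes. Below the median of all genes lay 37 of 49 and 20 of 28.

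Symbols do not always name the right subunit. Structures of the human particle place MRPS30 and MRPS18A in the large subunit, and MRPS36 is now known as a part of the oxoglutarate dehydrogenase complex, not of the ribosome. MRPS30 stood at 20.9 and 19.96 FPKM, with a ratio of 0.957 (0.899 to 1.019) and a log2 ratio above 0 with FPKM sums made equal or without the abundant genes in the scaling, and MRPS36 at 11.6 and 7.92 FPKM (ratio 0.680, 0.563 to 0.819). With subunits assigned by structure the medians were -0.20 for 51 large and -0.14 for 25 small-subunit genes, and the gap shrank to -0.06. The summed read ratios became 0.883 (0.871 to 0.896) and 0.889 (0.873 to 0.904).

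**Figure D2:**
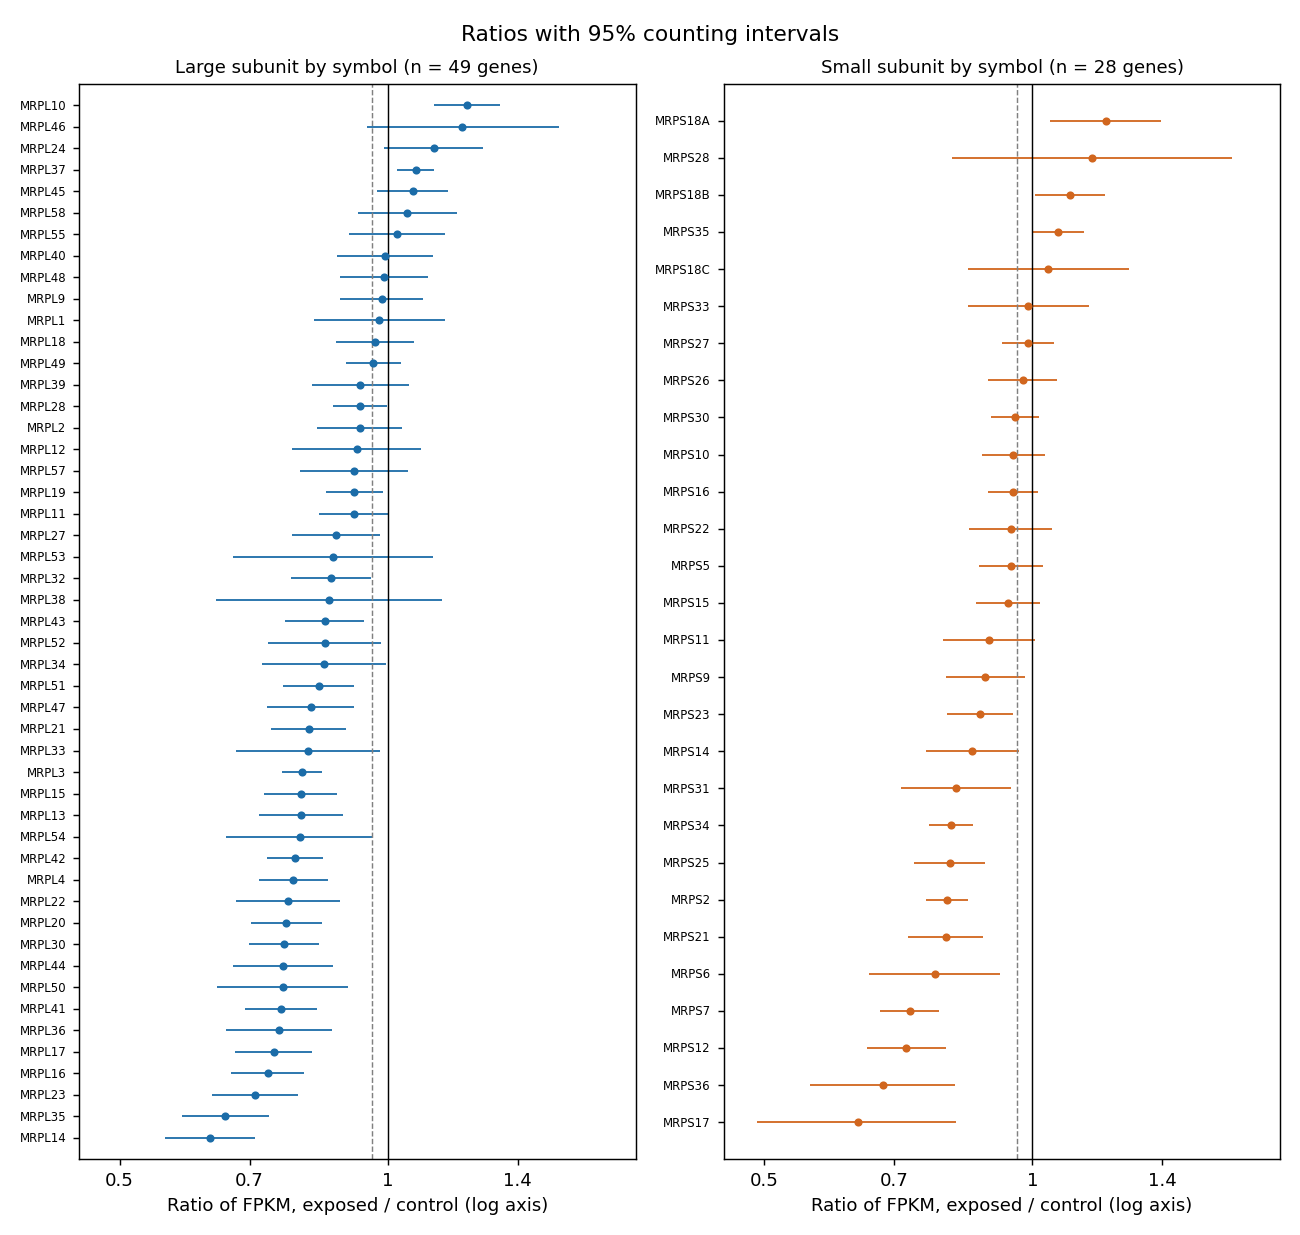
Ratio of FPKM, exposed over control, for the 49 measured large-subunit and 28 measured small-subunit genes by symbol, on a log axis. Points are ratios, bars 95% counting intervals, the solid line marks 1 and the dashed line the median ratio of all measured genes (0.960). In both panels most points lie below 1, from 0.632 for MRPL14 upward, and a few lie above it.

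The members with the lowest values were core proteins shared with bacteria, apart from MRPS36. MRPL14, which binds the large ribosomal RNA at the interface with the small subunit (ENSG00000180992, chr6:44113454-44127457, minus strand), fell in level from 49.7 to 31.4 FPKM. Its 763 and 475 reads gave a ratio of 0.632 (0.562 to 0.709) and a log2 ratio of -0.65, within the lowest 1.45% of measured genes. None of its exon bases are shared with another annotated gene. MRPL35, at 12.9 and 8.48 FPKM, had a ratio of 0.657 (0.587 to 0.736) and a log2 ratio of -0.55. MRPS17, at 4.66 and 2.97 FPKM, had a ratio of 0.636 (0.491 to 0.821) from 161 and 101 reads, and 27.0% of its exon bases are shared with the coding genes NIPSNAP2 (20.1 and 17.9 FPKM) and AC092647.5 (3 and 4 reads).

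The next 4 were near each other. MRPL23, a protein at the tunnel exit, stood at 16.1 and 11.4 FPKM (ratio 0.710, 0.634 to 0.794). MRPS12, the homolog of the bacterial protein in which streptomycin resistance arises, stood at 26.4 and 19.1 FPKM (ratio 0.722, 0.652 to 0.800). MRPS7, which binds the small ribosomal RNA, stood at 30.8 and 22.5 FPKM (0.728, 0.675 to 0.785). MRPL16 stood at 29.04 and 21.3 FPKM (0.734, 0.667 to 0.806). The intervals of these 4 overlap one another, so their order is not resolved.

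The highest values were smaller in size. MRPL10, which anchors the flexible stalk of the large subunit (ENSG00000159111, chr17:47823272-47831534, minus strand), stood at 22.3 and 27.3 FPKM. Its 984 and 1192 reads gave a ratio of 1.229 (1.128 to 1.338) and a log2 ratio of 0.29. MRPS18A stood at 17.3 and 20.9 FPKM (ratio 1.209, 1.047 to 1.396), and 47.0% of its exon bases are shared with RSPH9 on the other strand, which had 17 and 10 reads. MRPS18B, at 30.3 and 33.4 FPKM, had a ratio of 1.103 (1.007 to 1.208), and MRPL37 a ratio of 1.075 (1.024 to 1.129). These are the 4 members whose interval lay above 1. MRPL24 (1.126, 0.990 to 1.282), MRPS35 (1.069, 0.999 to 1.143), MRPL46 (1.214, 0.948 to 1.557) and MRPS28 (1.167, 0.813 to 1.677) completed the 8 highest, and their intervals held 1.

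Of genes whose proteins sit together, 1 of 3 in the stalk and 4 of 6 at the tunnel exit had a counting interval that did not hold 1. Over all measured genes the interval lay below 1 for 36% and above 1 for 21.5%, and these small counts were not tested against that. In the stalk, which recruits translation factors, MRPL10 was higher, and the intervals of the other two held 1. MRPL11 at its base stood at 24.9 and 22.8 FPKM (ratio 0.917, 0.838 to 1.004), and MRPL12, the protein of the flexible arm, at 18.3 and 16.9 FPKM (0.923, 0.781 to 1.091). MRPL12 shares 68.2% of its exon bases with AC139530.2, a coding gene with 0 reads in both libraries, and its log2 ratio lay above 0 with FPKM sums made equal. At the tunnel exit, 4 of 6 genes were at least 1.2-fold lower, against 19.3% of all measured genes. The median log2 ratio of the 6 was -0.29, and the intervals of MRPL24 and MRPL45 held 1. MRPL45, which fastens the ribosome to the inner membrane, stood at 33.9 and 36.2 FPKM (ratio 1.067, 0.974 to 1.169). Reads were also assigned to pseudogenes of MRPL45, which held 10.6% and 11.9% of the reads of the family, and with them the ratio was 1.082.

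Against 58.1% of all measured genes below 0, all 3 genes of the S18 family, MRPS18A, MRPS18B and MRPS18C, lay above 0. Their proteins are related to bacterial S18 and sit at separate places in the ribosome; MRPS18C takes the place of the bacterial protein, and the other two are counted here as mitochondria-specific. MRPS18C was the lowest in level, at 2.35 and 2.45 FPKM, with a ratio of 1.042 (0.846 to 1.284) and 40.2% of its exon bases shared with ABRAXAS1. The reads of all 3 together went from 1452 to 1605, a ratio of 1.121 (1.044 to 1.205). The interval of MRPS18C alone held 1, and the family was listed with earlier results of these data known.

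Members counted as homologs of bacterial proteins had lower values than those counted as mitochondria-specific. The second class holds MRPS18A and MRPS18B, related to bacterial S18, at log2 ratios of 0.26 and 0.14. Counting them as homologs was not run. The median log2 ratio was -0.24 for 44 measured bacterial homologs and -0.08 for 32 mitochondria-specific members, a gap of -0.16, with an SD among genes of 0.20 and 0.17. At 1.2-fold, 22 of 44 and 8 of 32 were lower, against 19.3% of all measured genes. The summed reads had ratios of 0.848 (0.836 to 0.860) and 0.937 (0.922 to 0.953), against 0.932 (0.931 to 0.932) over all measured protein-coding genes. Their intervals cover counting error and not the spread among genes, which exceeds the gap. The order was the same within each subunit by structure, with medians of -0.28 (n = 29) and -0.11 (n = 22) in the large and -0.17 (n = 15) and -0.05 (n = 10) in the small subunit. Of the 20 lowest members 16 were bacterial homologs, and of the 12 above 0 there were 4, MRPL10, MRPL24, MRPS28 and MRPS18C. Median transcript GC content was 48.7% and 50.2%, and median control levels were 21.3 and 16.7 FPKM; their part in the gap was not tested. With 1 library per group the gap describes these libraries and has no test.

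**Figure D3:**
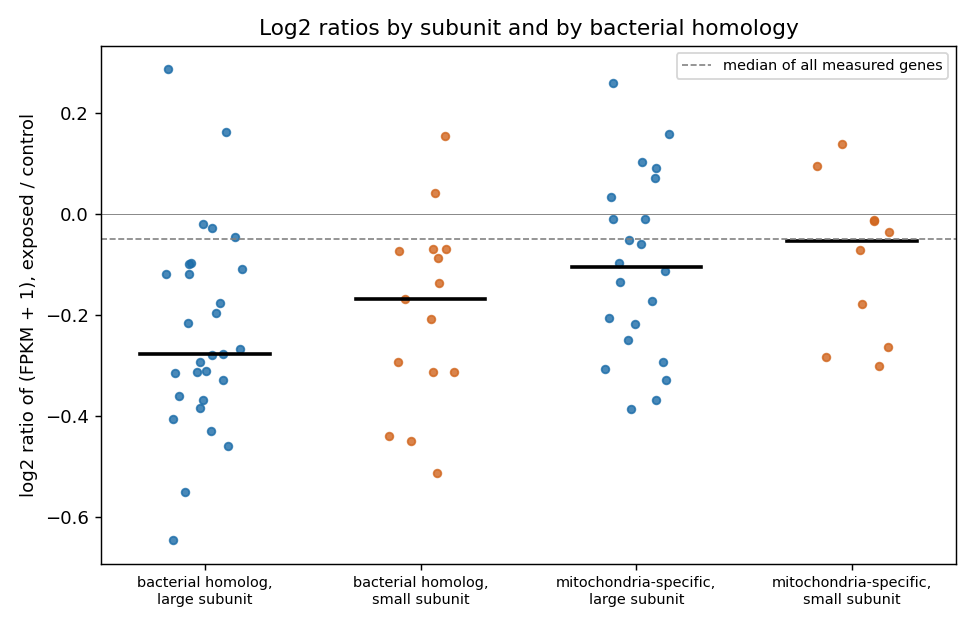
Log2 ratio of (FPKM + 1), exposed over control, for each measured gene, grouped by bacterial homology and by subunit in the structure. Points are genes, black bars group medians, and the dashed line is the median of all measured genes (-0.05). The bars lie at -0.28, -0.17, -0.11 and -0.05 from left to right, with wide overlap of the points.

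Across the 77 measured members, which are not independent replicates, the log2 ratio had a Spearman's rho of 0.01 with level, 0.04 with gene length and 0.00 with transcript GC content. Over 11399 measured genes with a coding transcript the same rho was -0.18 for level, -0.01 for length and 0.09 for GC content. Over the members, control and exposed log2(FPKM + 1) had a Pearson's r of 0.986.

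The 5 mitoribosomal proteins with other names followed the same range. GADD45GIP1 in the large subunit stood at 46.7 and 36.0 FPKM (ratio 0.771, 0.709 to 0.837). Of the small-subunit proteins, PTCD3, which helps messenger RNA to enter, stood at 13.7 and 10.9 FPKM (0.796, 0.747 to 0.848), CHCHD1 at 16.4 and 13.9 FPKM (0.845, 0.727 to 0.982) and AURKAIP1 at 48.7 and 45.2 FPKM (0.927, 0.856 to 1.004). DAP3, a GTP-binding protein also named for a role in cell death, was higher at 23.8 and 26.2 FPKM (1.100, 1.030 to 1.174). Their median log2 ratio was -0.23.

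Factors that work with the ribosome were lower about as often as other genes. None of 17 mitochondrial translation factors reached 1.5-fold, and the median was -0.11. At least 1.2-fold lower were 3 (17.6%, against 19.3% of all measured genes), and none was higher. The elongation factor gene TUFM stood at 83.1 and 71.9 FPKM (ratio 0.866, 0.821 to 0.912), and its exchange factor gene TSFM at 14.6 and 9.94 FPKM (0.679, 0.604 to 0.762). SLIRP, which stabilises mitochondrial messenger RNA, stood at 11.9 and 8.44 FPKM (0.712, 0.619 to 0.817). Of 26 assembly factors 6 (23.1%, against the same 19.3%) were at least 1.2-fold lower and 1 higher, none reached 1.5-fold, and the median of -0.03 was close to that of all genes. C1QBP, an abundant matrix protein, stood at 194 and 135 FPKM (ratio 0.693, 0.668 to 0.718), and MPV17L2, a membrane protein of large-subunit assembly, at 12.4 and 8.55 FPKM (0.692, 0.594 to 0.806). Reads on the ribosomal RNA genes went the other way: MT-RNR1 and MT-RNR2 had ratios of 1.307 (1.282 to 1.332) and 1.786 (1.773 to 1.800). Together they took 0.757% of control and 1.37% of exposed reads. The libraries were prepared for messenger RNA, so these reads need not follow the amount of ribosomal RNA, which was not measured.

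Set beside 2 related groups, the mitoribosomal genes lay near the complex I subunits and below the cytosolic ribosomal proteins. Both groups were taken by symbol, and the place of each protein was not checked. The 35 measured NDUF genes, counted here as complex I subunits, had a median log2 ratio of -0.20. At least 1.2-fold lower were 14 and higher 1, against 19.3% and 12% of all measured genes. At least 1.5-fold lower were 4, against 2.16%. The 82 measured cytosolic ribosomal protein genes had a median of 0.07, with 3 at least 1.2-fold lower and 8 higher, against the same 19.3% and 12%. Below the median of all genes lay 74.0% of mitoribosomal, 77.1% of complex I and 20.7% of cytosolic ribosomal protein genes. No test of these differences was possible with 1 library per group.

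**Figure D4:**
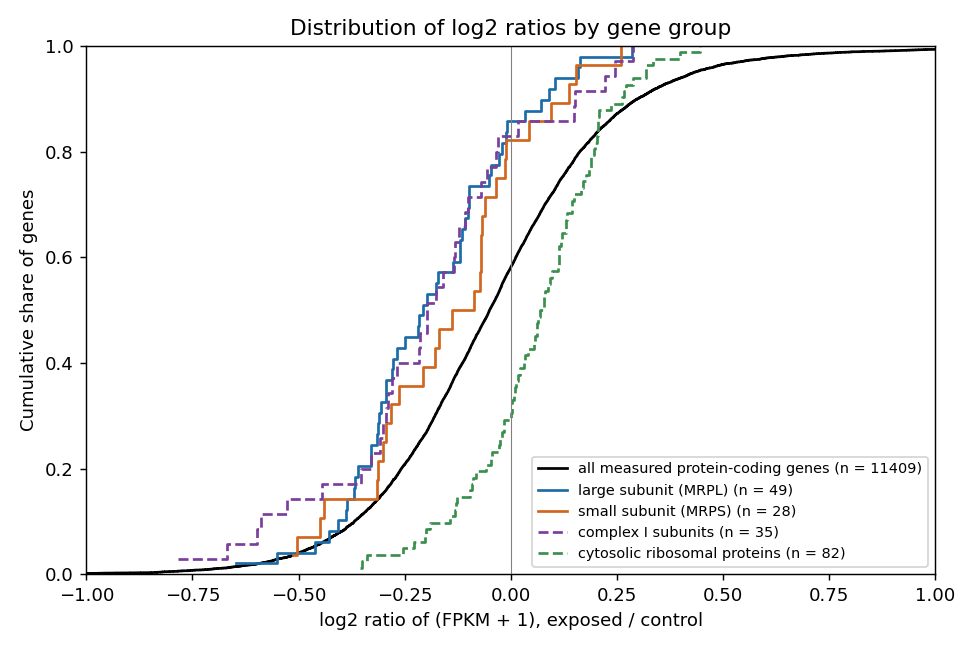
Cumulative share of genes by log2 ratio of (FPKM + 1), exposed over control. Groups taken by symbol are large-subunit (n = 49) and small-subunit genes (n = 28), complex I subunits (n = 35) and cytosolic ribosomal proteins (n = 82). They are shown with all measured protein-coding genes (n = 11409). The curves of both subunits and of complex I cross 0.5 to the left of the curve of all genes, and that of cytosolic ribosomal proteins to its right.

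Many of the genes share a start region with a neighbour on the other strand. A protein-coding gene on the opposite strand started within 1000 bases of 29 of the 78 members (37.2%), against 18.1% of all measured protein-coding genes. These 29 members form 28 pairs, since MRPL46 and MRPS11 start 34 bases apart and are partners of each other. In the 23 pairs with both genes measured, with FPKM as deposited, both lay below 0 in 14. The member alone lay below 0 in 5 and the partner alone in 4, and in none were both above 0. Of all measured genes 58.1% lay below 0, and the pair counts were not tested against that. The log2 ratios of member and partner had a Spearman's rho of -0.337. No partner reached 1.5-fold, against 2.16% lower and 2.53% higher of all measured genes. The member had the larger absolute log2 ratio in 16 of 23 pairs. The added 1 understates the difference of low partners, such as LRRC46, PSMA2 and PTCD2 at means of 1.54, 1.63 and 2.72 FPKM. The count is therefore not an even comparison of members and partners.

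The pairs were chosen by position and the examples after their values were seen. MRPL46 had a ratio of 1.214 (0.948 to 1.557), while MRPS11, a homolog of bacterial S11, stood at 6.61 and 5.92 FPKM (ratio 0.895, 0.794 to 1.008), and both intervals held 1. MRPL14 at 0.632 was paired with TMEM63B at 9.27 and 10.1 FPKM (1.087, 0.976 to 1.211), whose start overlaps it. MRPS34 at 0.810 (0.765 to 0.857) was paired with the DNA repair gene EME2 at 9.31 and 7.24 FPKM (0.778, 0.708 to 0.854). MRPL18 at 35.6 and 34.4 FPKM (0.968, 0.874 to 1.071) was paired with the chaperonin gene TCP1 at 99.6 and 73.0 FPKM (0.733, 0.708 to 0.759). MRPL36 at 22.1 and 16.7 FPKM (0.755, 0.658 to 0.866) and MRPL47 at 31.4 and 25.7 FPKM (0.820, 0.732 to 0.918) were paired with the complex I genes NDUFS6 (0.910, 0.817 to 1.013) and NDUFB5 (0.976, 0.878 to 1.085).

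**Figure D5:**
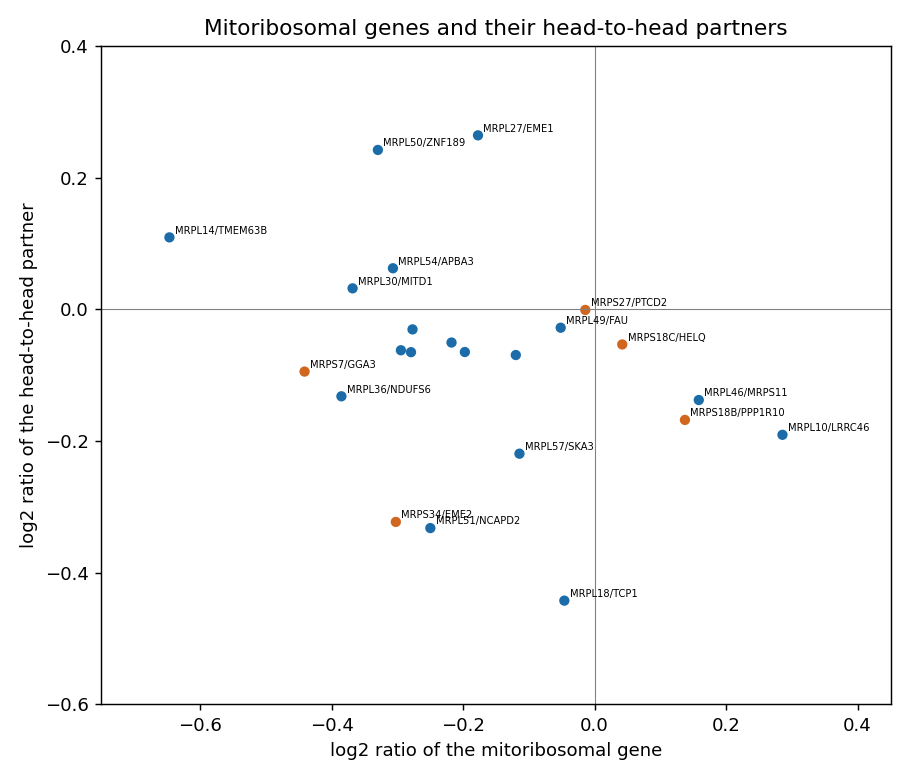
Log2 ratio of (FPKM + 1), exposed over control, of each mitoribosomal gene against that of its head-to-head partner, for the 23 pairs with both genes measured. Blue points are large-subunit and orange points small-subunit genes, and lines mark 0. No point lies above 0 on both axes, and of all measured genes 58.1% lay below 0. TCP1, the lowest partner, stands beside MRPL18 near 0.

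Pseudogenes carried few of the reads. The table lists 75 pseudogenes named after members, of which 12 had a read in either library, 199 reads in the control and 216 in the exposed library. They held at least 5% of the family's reads for 2 members, MRPL45 and MRPS31. Pseudogenes of MRPS31 held 12.5% in the control and 12.6% in the exposed library, and its ratio was 0.820 with and without them. Some exon bases were shared with another gene in 41 members, and the 37 without such bases had a median log2 ratio of -0.18, as did the 40 measured with them.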

How the data were processed

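The deposited table holds 1 FPKM value per gene and library, computed by the authors from a SMARTer messenger RNA library per the labels' protocols; the aligner is not given in the sources used here, nor the counter. Builds of the mouse genome (GRCm38, mm10) appear in the submitters' processing notes, but all 58735 genes had the human symbol, start and end of GENCODE release 29 (GRCh38), and deposited lengths equalled merged exons for all 78 members. Reads were recovered from FPKM and gene length, and 100% of values above 0 came out whole within 0.001 reads; where none was seen, up to 3 reads are allowed (0.182 and 0.196 RPM). FPKM were used as deposited, with a pseudocount of 1 and a minimum mean of 1 FPKM. Intervals are exact conditional binomial 95% intervals (scipy 1.17.1) and cover counting error only. No test was run with 1 library per group. Named genes were those at least 1.5-fold apart, the 8 highest and 8 lowest log2 ratios, the 4 highest and 4 lowest levels, and fixed members and factors. Head-to-head examples were picked with values in view. Members, lists and rules were chosen with earlier results of these data known. The procedure was tested on simulated reads.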

Additional observations from a re-analysis of the deposited data

How the results depend on the processing

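The medians depended on the scaling. As reported, the median log2 ratio was -0.21 for the large and -0.11 for the small subunit. With FPKM sums made equal they were -0.10 and 7.8e-05, so the small-subunit median was no longer below 0, while the median of all genes went from -0.05 to 0.06. They were -0.156 and -0.0595 with the trimmed mean of log ratios set to 0, -0.154 and -0.0574 with equal 75th percentiles, and -0.143 and -0.0458 with scaling without the 100 most abundant and mitochondrial genes. With pseudocounts of 0.1 and 5 the large-subunit median was -0.23 and -0.15, and with 5 the small-subunit median was -0.0822. The small-subunit median was -0.0874 with no filter on low values, and -0.14 with a minimum of 5 FPKM or subunits by structure. Without members overlapping another gene the medians were -0.243 and -0.0874. The gap of large minus small, -0.09 as reported, was -0.0594 by structure and -0.16 without overlapping members. It was below 0 in all settings run, but rescaling a library moves both medians nearly alike. The scaling settings could therefore hardly change the gap. Settings chosen after seeing the data were removal of members sharing exon bases (small -0.0782, gap -0.13) and of the GC trend (large -0.16, small -0.0860). The cause of these shifts was not tested.

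The number at least 1.5-fold lower was 1 as reported, 3 with a pseudocount of 0.1, and 0 with equal FPKM sums and with scaling without the abundant genes. It was also 0 without overlapping members, by construction, since MRPL14 lies across another gene's span and is removed. That setting tested 29 members, of which 21 lay below the median of all genes, against 57 of 77. None was 1.5-fold higher under any setting run. The sign of 19 members was opposite with equal FPKM sums, of 12 without the abundant genes, and of 9 with the trimmed mean set to 0 or equal 75th percentiles. No paired analysis was possible because each group has 1 library. Members with few reads, such as MRPS24, MRPS28 and MRPL38, are limited by depth.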
